A study of Mus musculus with 8 samples.

Results

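The genes of the eukaryotic translation initiation factors were examined in striata of wild-type and R6/2 mice. Members were all genes whose symbol in the platform annotation is Eif followed by a digit, without the repressors Eif4ebp and the kinases Eif2ak. Of 18193 genes measured by a probe set that names a single gene, 41 were members. Each gene was represented by its probe set with the highest mean over the 8 arrays, and no difference between genotypes entered the choice. R6/2 mice carry exon 1 of human huntingtin with a long CAG repeat as a transgene, expressed from the human promoter of that gene, and serve as a model of Huntington's disease. The arrays analysed came from 4 R6/2 mice (64, 65, 70 and 78) and 4 wild-type mice (42, 48, 54 and 63). All were female, aged 12 weeks (85 days), of C57Bl/6 / CBA strain background, and their striata were hybridised to 1 array each. Each mouse has its own number in the labels, and p-values here refer to the spread from animal to animal.

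Initiation factors bring the ribosome to the start codon of an mRNA. The eIF2 complex carries the initiator tRNA and is recharged with GTP by eIF2B. The large eIF3 complex, eIF1 and eIF1A hold the small ribosomal subunit open for scanning. The cap-binding protein eIF4E, the scaffold eIF4G and the helicase eIF4A load the mRNA, and eIF5 and eIF5B complete the joining of the large subunit. Phosphorylation of eIF2 by its kinases and binding of eIF4E by its repressors are the main brakes, and both act on proteins, which expression arrays do not measure. Neurons use local control of these steps at synapses.

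In R6/2 striatum 8 of the 41 genes rose, 1 fell and 32 did not pass the test. The genes that rose were Eif4e, Eif5b, Eif2s3x, Eif2s2, Eif3d, Eif4a2, Eif1b and Eif3e, by 1.19-fold to 1.34-fold, and the gene that fell was Eif2d, by 1.38-fold. The test was limma's moderated linear model on log2 values, with p-values adjusted by Benjamini-Hochberg over all 18193 genes and a threshold of 0.05. Over all genes, 15.3% were called, 9.09% higher and 6.19% lower, against 22.0% called and 19.5% higher among the initiation factors. The differences were small throughout, and no member differed by 0.5 or more on the log2 scale. Their direction was more uniform than their calls: 36 of 41 had a positive log2 difference, R6/2 minus wild-type, with a median of 0.15, whereas 49.3% of all genes were positive and the median of all genes was -0.0034. Without probe sets ending in _s_at or _x_at, 32 of 39 members were positive. Wild-type and R6/2 values were fully separate for 9 members that were higher and 1 that was lower, 24.4% of the members. Over all genes 19.4% were separate, 11.7% higher and 7.67% lower. Most members are bright on the array, and brighter genes were called more often. Without the dimmest 40% of genes, 9 of 39 members were higher (23.1%) and 1 lower, against 16.9% higher and 10.4% lower among the 10916 genes then tested. In that selection 36 of 39 members and 59.2% of all genes had a positive difference.

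**Figure D1:**
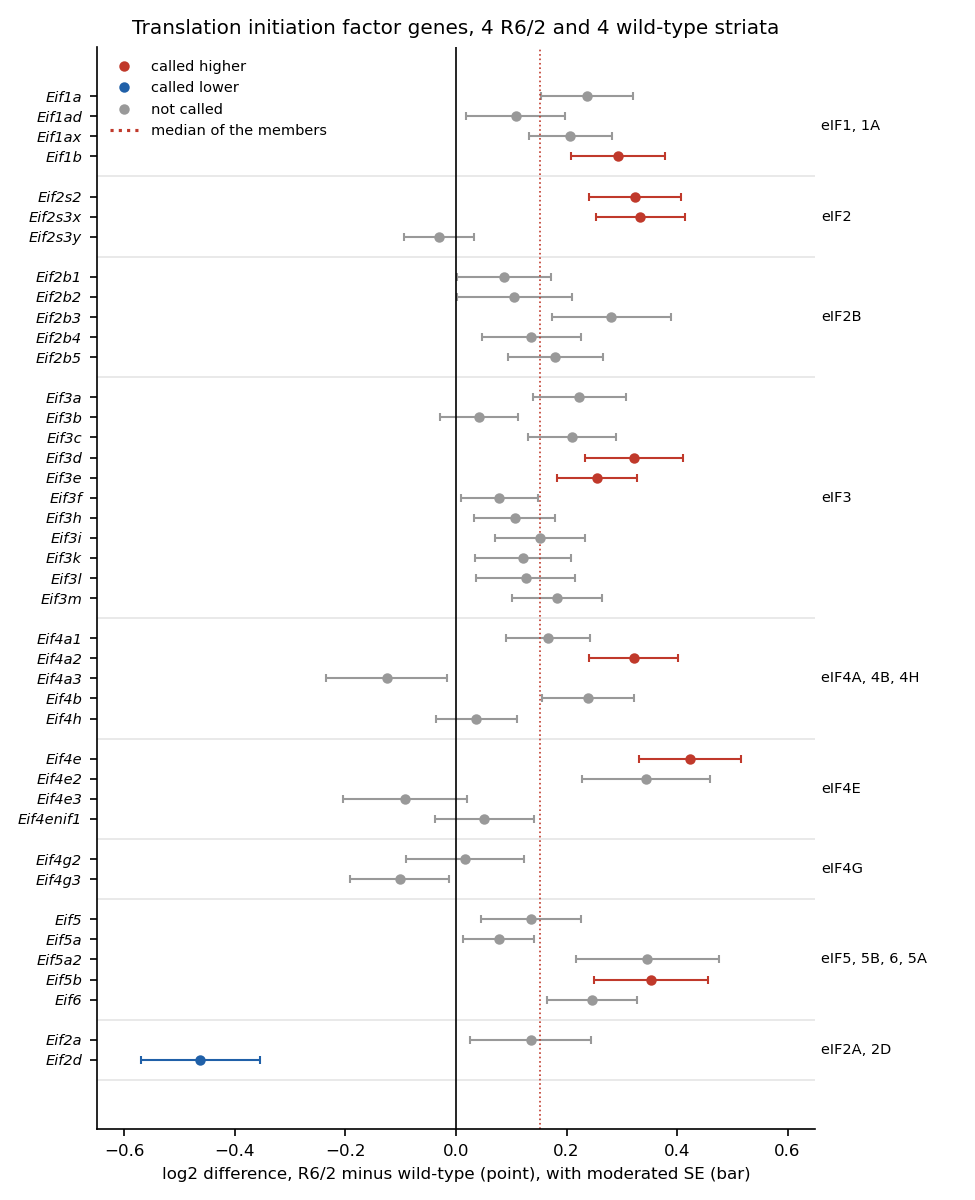
Log2 difference, R6/2 minus wild-type (horizontal axis), for each of the 41 initiation factor genes, ordered by complex, with points for the difference and bars for the moderated standard error. Red marks the 8 genes called higher, blue Eif2d, the gene called lower, and grey the 32 others. The dotted line is the members' median of 0.15.

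The count of calls changed when single arrays were left out. When 1 wild-type array was left out, the genes called higher numbered 7 (mouse 42), 2 (mouse 48), 3 (mouse 54) and 7 (mouse 63). When 1 R6/2 array was left out, they numbered 2 (mouse 64), 8 (mouse 65), 1 (mouse 70) and 3 (mouse 78). Set against all genes called higher in the same fit, the members' share was at or below the background without mouse 48 (4.88% against 5.06%), mouse 64 (4.88% against 5.47%) and mouse 70 (2.44% against 5.08%). It was close to it without mouse 54 (7.32% against 6.76%) and mouse 78 (7.32% against 6.19%), and above it without mouse 42 (17.1% against 8.68%), mouse 63 (17.1% against 7.49%) and mouse 65 (19.5% against 8.09%). The larger share of calls among the members was thus not kept in every fit. Each of these fits also holds 1 array fewer, and the part of lower power in the lost calls was not tested. Without R6/2 mouse 70 no member was called lower, and Eif2d had an adjusted p of 0.0520 in limma. The median log2 difference lay between 0.13 and 0.19 over the 8 fits without 1 array. The number of genes called over the whole table fell as well, to 1698 without wild-type mouse 48 and 1679 without R6/2 mouse 70, from 2781.

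Promoters are shown for the 3 called genes with a motif match, to show where it lies, and for Eif2d as the gene that fell. RefSeq windows of 300 bases (GRCm38.p6, 250 bases before and 50 after an annotated start) matched 33 of the 41 members by symbol, in 45 windows. They were searched on both strands for the E-box CACGTG, bound by MYC and related factors, the ETS core CCGGAAG and the YY1 core ATGGCGG, and no matches overlapped each other. The E-box was present for 9 of 33 members (27.3%), against 10.2% of the 14452 measured genes with a window. By window it was present in 24.4% of the members' 45 windows, against 8.72% of the 18109 windows of measured genes and 7.15% of all 32851 windows. The ETS core was present for 13 of 33 (39.4%), against 15% of measured genes. By window it was present in 35.6% of the members' windows, against 13% of the windows of measured genes and 8.86% of all windows. The YY1 core was present for 1 of 33, Eif2s3y (3.03%), against 7.04% of measured genes. By window it was present in 2.22% of the members' windows, against 5.91% of the windows of measured genes and 4.05% of all windows. Among the 8 called members with a window, Eif4e and Eif1b held the E-box, and Eif1b and Eif3d the ETS core. The genes that rose Eif5b, Eif2s2, Eif4a2 and Eif2s3x had no match, and neither had Eif2d. The measured genes include dim ones, and the motif shares were not compared among genes of like brightness. A match describes the letters of the window and not the binding of a factor.

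The 250 bases before the start are printed below for 4 called genes, with capitals marking the E-box or the ETS core on either strand. The start of Eif4e with 2 E-boxes lies at chr3:138527018-138527267 (plus strand), and another annotated start of Eif4e held none. Eif1b lies at chr9:120492356-120492605 (plus strand) and has an E-box that begins 24 bases before the start. Eif3d lies at chr15:77970825-77971074 (minus strand) and Eif2d, the gene that fell, at chr1:131152957-131153206 (plus strand), with no match in its window.
Eif4e: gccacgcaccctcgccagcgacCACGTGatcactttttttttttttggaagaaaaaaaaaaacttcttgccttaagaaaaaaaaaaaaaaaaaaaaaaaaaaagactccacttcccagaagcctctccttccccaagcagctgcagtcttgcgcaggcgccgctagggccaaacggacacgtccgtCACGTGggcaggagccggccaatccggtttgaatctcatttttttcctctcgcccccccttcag
Eif1b: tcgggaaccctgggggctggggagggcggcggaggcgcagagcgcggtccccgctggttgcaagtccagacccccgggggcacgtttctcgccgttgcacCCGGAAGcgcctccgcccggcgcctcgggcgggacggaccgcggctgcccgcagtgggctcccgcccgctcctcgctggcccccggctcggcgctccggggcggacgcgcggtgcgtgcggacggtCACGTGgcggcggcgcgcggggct
Eif3d: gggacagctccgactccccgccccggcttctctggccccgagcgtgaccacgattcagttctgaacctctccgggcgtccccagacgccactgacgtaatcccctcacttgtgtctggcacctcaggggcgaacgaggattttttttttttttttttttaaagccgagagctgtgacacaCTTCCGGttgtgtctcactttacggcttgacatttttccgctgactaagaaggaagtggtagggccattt
Eif2d: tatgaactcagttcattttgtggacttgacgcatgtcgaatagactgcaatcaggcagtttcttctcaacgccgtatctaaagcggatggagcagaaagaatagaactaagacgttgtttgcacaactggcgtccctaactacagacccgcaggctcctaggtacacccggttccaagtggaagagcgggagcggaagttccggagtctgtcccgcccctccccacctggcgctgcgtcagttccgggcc

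Among the factors that load the mRNA, the cap-binding protein gene Eif4e showed the largest rise. Its log2 values were 8.72, 8.88, 9.07 and 9.01 in wild-type mice 42, 48, 54 and 63, and 9.34, 9.41, 9.43 and 9.20 in R6/2 mice 64, 65, 70 and 78. Every R6/2 value lay above every wild-type value. The means were 8.92 ± 0.16 and 9.34 ± 0.10 (SD, n = 4 each), a difference of 0.42 ± 0.093 (SE), and limma's adjusted p was 0.0130. This call was kept without any single array, with adjusted p up to 0.0447. A second Eif4e probe set of nearly equal brightness, with a mean of 8.96, had a difference of 0.089 ± 0.075 (adjusted p = 0.515 over 45037 probe sets in limma), and with the mean of all Eif4e probe sets the difference was 0.056 (adjusted p = 0.679). Of the other genes of the group, Eif4e2, a cap-binding protein that represses translation, differed by 0.34 ± 0.12 (adjusted p = 0.0715 in limma). It was called without wild-type mouse 63 (adjusted p = 0.0326) or R6/2 mouse 65 (adjusted p = 0.0441). Eif4e3, a cap-binding relative, differed by -0.092 ± 0.11 (95% interval -0.34 to 0.16), and its sign was positive without R6/2 mouse 65 (0.0057). Eif4enif1, which carries eIF4E into the nucleus, differed by 0.051 ± 0.090, with a negative sign without R6/2 mouse 70 (-0.0049).

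Of the genes of the eIF4A helicase and its partners, Eif4a2, the helicase isoform abundant in neurons, rose. The wild-type values were 11.48, 11.74, 11.80 and 11.71 and the R6/2 values 12.00, 12.03, 12.02 and 11.97, in order of mouse number. The R6/2 mice lay closely together above all wild-type mice, and wild-type mouse 42 was the lowest. The difference was 0.32 ± 0.081 (SE, n = 4 each), with an adjusted p of 0.0239 in limma, and the call was lost without R6/2 mouse 64, 65 or 70 (adjusted p = 0.0536, 0.0502 and 0.0649). Eif4a1, the isoform typical of dividing cells, also did not overlap between groups, with wild-type values of 10.79 to 10.99 and R6/2 values of 10.99 to 11.19. Its difference of 0.17 ± 0.076 did not pass (adjusted p = 0.175 in limma), and its dimmer probe sets differed by 0.49 ± 0.17 and 0.75 ± 0.29 without passing (adjusted p = 0.0892 and 0.144). The helicase cofactor Eif4b differed by 0.24 ± 0.083 (adjusted p = 0.0801 in limma). For Eif4h, another cofactor, the difference was 0.036 ± 0.073, and the 95% interval ran from -0.13 to 0.20. Eif4a3, the helicase of the exon junction complex, was dim on its single-gene probe set, at 4.33 ± 0.15 in wild-type mice, and differed by -0.13 ± 0.11 (adjusted p = 0.493). A bright probe set that the annotation assigns to both Eif4a3 and Gm5576, with a mean of 9.27, differed by 0.21 ± 0.092 in the opposite direction (adjusted p = 0.186 over 45037 probe sets in limma).

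Of the scaffold genes, Eif4g2 gave different calls by probe set. The brightest probe set of Eif4g2, a scaffold that does not bind eIF4E, lay at 11.44 ± 0.15 in wild-type and 11.46 ± 0.17 in R6/2 mice (SD, n = 4 each). Its difference was 0.017 ± 0.11, with an adjusted p of 0.938 in limma, and it turned negative when mouse 48, 54, 65 or 78 was left out (-0.034 to -0.025). Another pair of Eif4g2 probe sets, at means of 10.5 and 10.1, was higher by 0.32 ± 0.084 and 0.39 ± 0.065 (adjusted p = 0.0385 and 0.00562 over 45037 probe sets in limma). Eif4g3, the long relative of Eif4g1, differed by -0.10 ± 0.090 (95% interval -0.30 to 0.097), and none of its 4 probe sets was called.

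Of the eIF2 subunit genes, Eif2s2 and Eif2s3x rose. Eif2s2 encodes the beta subunit, with values of 9.89, 9.81, 9.89 and 9.92 in wild-type mice 42, 48, 54 and 63 and 10.32, 10.03, 10.32 and 10.15 in R6/2 mice 64, 65, 70 and 78. All R6/2 mice lay above the narrow wild-type range, mouse 65 by the least. The difference was 0.32 ± 0.083 (adjusted p = 0.0259 in limma, n = 4 each), and the call was lost when mouse 48, 54, 64 or 70 was left out (adjusted p = 0.0749, 0.0506, 0.0733 and 0.0789). Of its other probe sets, the brightest, with a mean of 9.92, was called higher, at 0.36. A pair with means of 9.50 and 9.29 differed by 0.057 and -0.12 without passing (adjusted p = 0.714 and 0.388). A dim probe set, with a mean of 5.59, was called higher, at 0.59. Eif2s3x encodes the gamma subunit, which binds GTP and the initiator tRNA, from the X chromosome. It lay at 9.25, 9.30, 9.48 and 9.47 in wild-type mice and at 9.62, 9.69, 9.80 and 9.74 in R6/2 mice, again without overlap. The difference of 0.33 ± 0.080 had an adjusted p of 0.0196 in limma, lost when mouse 48, 70 or 78 was left out (adjusted p = 0.0616, 0.0625 and 0.0524). A second probe set of similar brightness was also called higher, at 0.37 ± 0.091 (adjusted p = 0.0316 over 45037 probe sets). The Y-linked copy Eif2s3y lay at 3.03 ± 0.046 in wild-type mice and differed by -0.031 ± 0.063, near the lowest value in the table of 2.57, in animals labelled as female. Eif2s1, the gene of the phosphorylated alpha subunit, was not analysed here.

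None of the 5 genes of eIF2B, the exchange factor that recharges eIF2, passed with limma. An unadjusted p under 0.05 in limma was reached by 1 of the 5, and by 5382 of all 18193 genes. All 5 differences were positive, from 0.087 for Eif2b1 to 0.28 for Eif2b3. Eif2b2 differed by 0.11 ± 0.10 and Eif2b4 by 0.14 ± 0.090 (adjusted p = 0.550 and 0.352 in limma). The dimmer probe sets of Eif2b2 were called higher, at 0.28 ± 0.074 and 0.37 ± 0.088 (adjusted p = 0.0369 and 0.0271 over 45037 probe sets), so that the choice of probe set decided the call of this subunit.

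Of 11 genes of eIF3, the scaffold on the small ribosomal subunit, 2 rose and all 11 differences were positive, with a median of 0.15. Eif3d, a subunit that can bind the mRNA cap, lay at 9.44, 9.24, 9.32 and 9.12 in wild-type mice and at 9.76, 9.50, 9.57 and 9.58 in R6/2 mice. The groups did not overlap, though wild-type mouse 42 and R6/2 mouse 65 were close. Its difference was 0.32 ± 0.089 (adjusted p = 0.0343 in limma, n = 4 each). The values for Eif3e, a subunit at the edge of the complex, were 10.68, 10.72, 10.80 and 10.75 in wild-type mice and 11.05, 10.90, 11.09 and 10.94 in R6/2 mice, a difference of 0.26 ± 0.072 (adjusted p = 0.0381). The call of Eif3d was lost without any of 6 arrays (wild-type 48, 54 or 63, R6/2 64, 70 or 78), at most to an adjusted p of 0.0920 without R6/2 mouse 64. That of Eif3e was lost without any array but that of R6/2 mouse 65, at most to an adjusted p of 0.109 without R6/2 mouse 70. Other Eif3e probe sets of like brightness moved less, at 0.13 ± 0.064 and 0.081 ± 0.084 (adjusted p = 0.244 and 0.608). A second Eif3d probe set was dim, with a mean of 4.51, and differed by -0.10 ± 0.11. With the mean of all probe sets the differences were 0.11 for Eif3d and 0.12 for Eif3e (adjusted p = 0.456 and 0.185 in limma). The remaining 9 genes differed by 0.041 for Eif3b to 0.22 for Eif3a, and 1 further probe set of Eif3c was called higher, at 0.37 ± 0.070 (adjusted p = 0.00985).

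The genes of eIF1 and eIF1A, which keep the small subunit scanning and select the start codon, were all positive, and Eif1b rose. Eif1b, a close relative of Eif1, lay at 9.65, 9.47, 9.60 and 9.74 in wild-type mice and at 10.02, 9.77, 9.97 and 9.87 in R6/2 mice. Wild-type mouse 63 and R6/2 mouse 65 were close, without overlap. The difference was 0.29 ± 0.085 (adjusted p = 0.0422 in limma, n = 4 each), a call lost without any of 6 arrays (wild-type 42, 48 or 54, R6/2 64, 70 or 78), at most to an adjusted p of 0.116 without wild-type mouse 48. Eif1ax, the X-linked eIF1A gene, did not overlap between the groups either, but its difference of 0.21 ± 0.076 did not pass (adjusted p = 0.0932), and a dimmer probe set was called higher at 0.57 ± 0.089 (adjusted p = 0.00435 over 45037 probe sets).

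In the group that completes initiation, Eif5b rose. The GTPase eIF5B joins the large ribosomal subunit, and its gene lay at 8.14, 7.76, 7.85 and 7.63 in wild-type mice and at 8.27, 8.20, 8.19 and 8.13 in R6/2 mice. Wild-type mouse 42 stood above the other wild-type mice and overlapped with R6/2 mouse 78. The difference was 0.35 ± 0.10 (adjusted p = 0.0440 in limma, n = 4 each), and the call held only without wild-type mouse 42 among the fits without 1 array, with an adjusted p of 0.00726 there and of up to 0.115, without wild-type mouse 48, elsewhere. It was also lost when each array was centred on its median (adjusted p = 0.0524). A second Eif5b probe set differed by 0.42 ± 0.12 (adjusted p = 0.0505). Eif5, which triggers GTP hydrolysis by eIF2, differed by 0.14 ± 0.091 (adjusted p = 0.356). Eif5a, which helps ribosomes through difficult stretches, lay at 12.04 ± 0.047 in wild-type and 12.12 ± 0.032 in R6/2 mice, a difference of 0.078 ± 0.064 (95% interval -0.064 to 0.22). Its paralogue Eif5a2 differed by 0.35 ± 0.13 (adjusted p = 0.0997) and was called without wild-type mouse 63 (adjusted p = 0.0217).

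Eif2d was the member that fell. The eIF2D protein can deliver initiator tRNA without eIF2 and takes part in recycling ribosomes. The wild-type values were 7.71, 7.52, 7.38 and 7.38 and the R6/2 values 7.22, 6.81, 6.98 and 7.13. All R6/2 mice lay below all wild-type mice. The means of 7.50 ± 0.16 and 7.03 ± 0.18 (SD, n = 4 each) differed by -0.46 ± 0.11 (SE, 95% interval -0.70 to -0.23, adjusted p = 0.0169 in limma). This was the largest difference of any member. Another Eif2d probe set of similar brightness, with a mean of 7.04, had a difference of -0.092 ± 0.096 (adjusted p = 0.610 over 45037 probe sets), and with the mean of all Eif2d probe sets the difference was -0.10 (adjusted p = 0.309). The related Eif2a, a separate gene from the eIF2 subunits, differed by 0.14 ± 0.11 (adjusted p = 0.453).

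**Figure D2:**
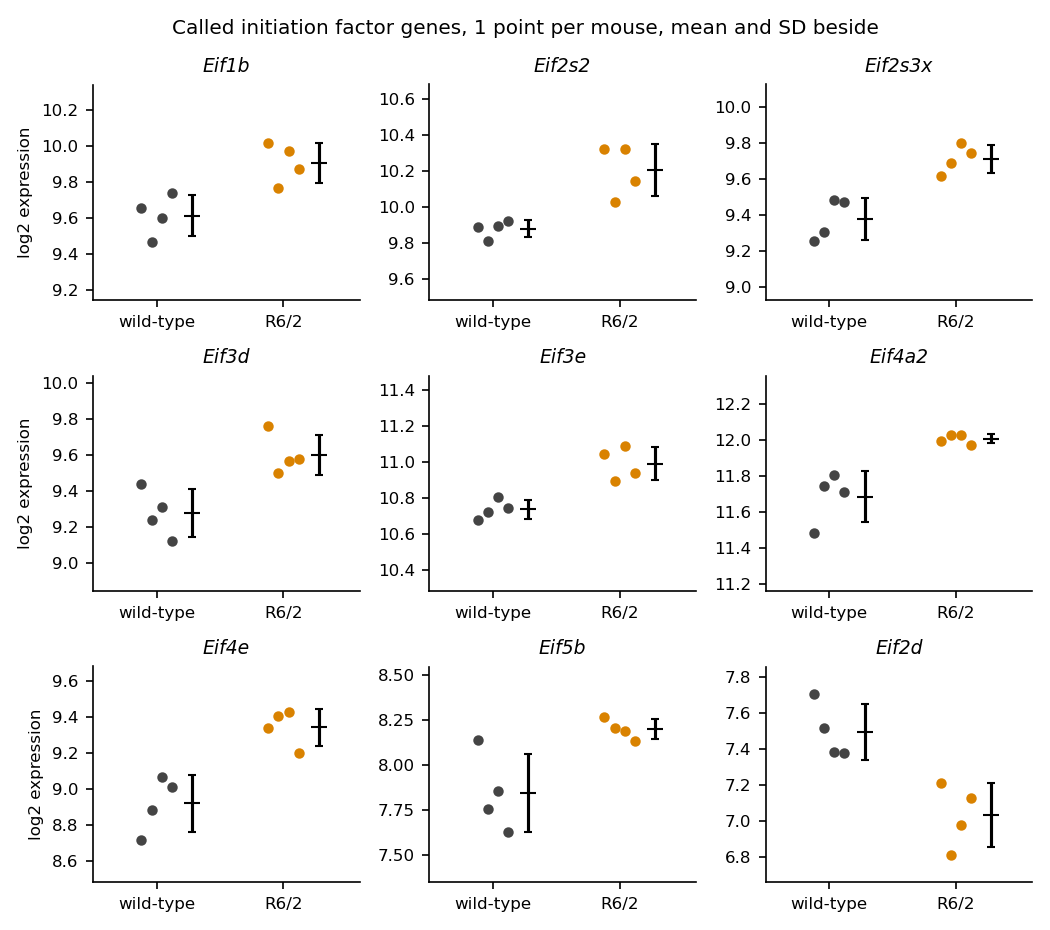
Log2 expression (vertical axes, all of the same span) of the 9 called initiation factor genes in 4 wild-type (grey) and 4 R6/2 (orange) striata, with 1 point per mouse in order of mouse number and the mean and SD at the side. In 7 of the 8 genes that rose, every R6/2 point lies above every wild-type point. In Eif5b wild-type mouse 42 overlaps, and Eif2d is lower in every R6/2 mouse.

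Across all 112 single-gene probe sets of the members, 14 were called higher and 1 lower (13.4%), against 10.1% of all 45037 probe sets, of which 5.54% were higher and 4.59% lower. The brightest probe sets of Eif1b, Eif3e and Eif5b did not pass over all probe sets (adjusted p = 0.0575, 0.0514 and 0.0607 in limma). More than 1 single-gene probe set was present for 31 members. Of the 71 probe sets not used for the gene-level test, 9 were called higher and 0 lower, and 21 had the sign opposite to the one used.

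**Figure D3:**
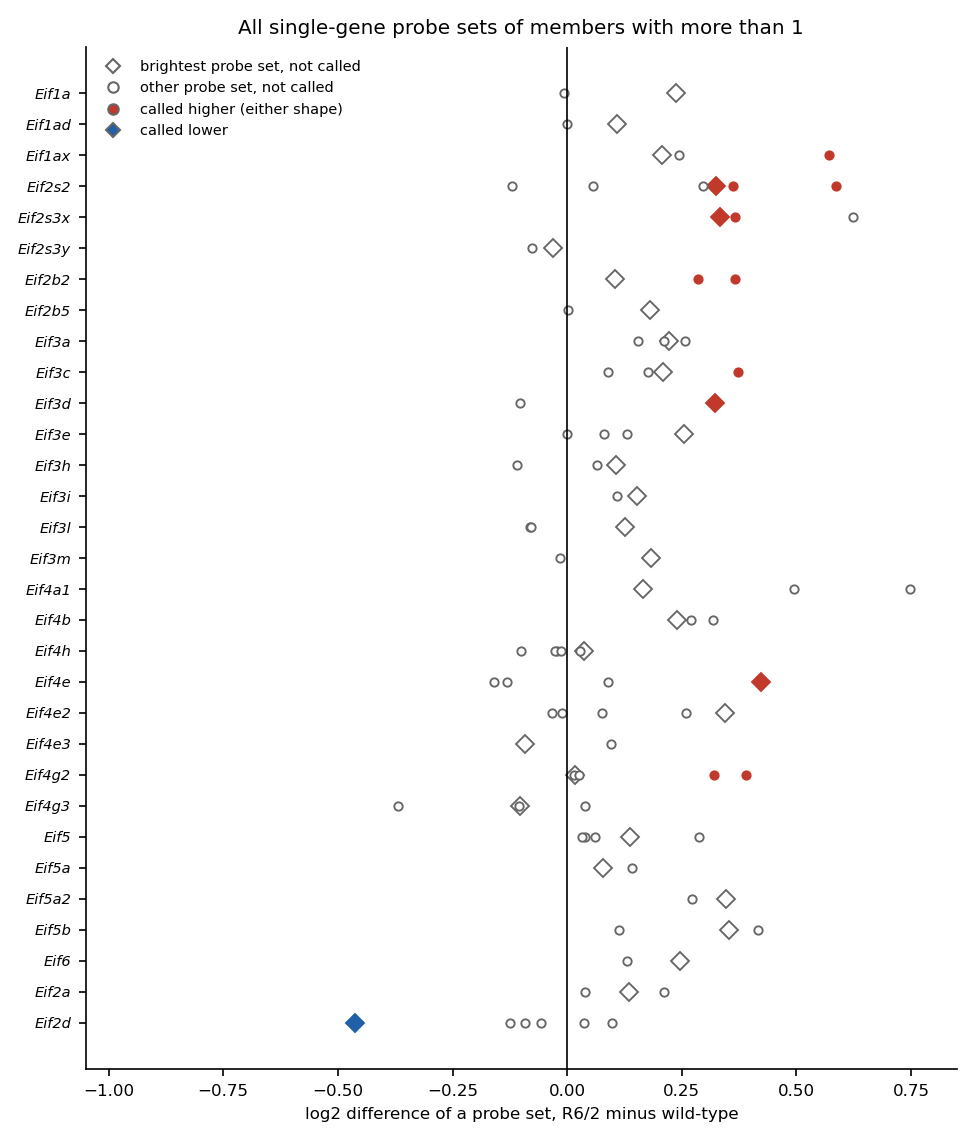
Log2 difference, R6/2 minus wild-type (horizontal axis), of each single-gene probe set of the 31 members with more than 1, with diamonds for the brightest and circles for the others. Filled symbols passed limma over 45037 probe sets. Eif4g2, Eif3c, Eif2b2 and Eif1ax have filled circles beside an open diamond, and Eif4e and Eif2d have a filled diamond beside open circles near 0.

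The members' level was also taken array by array. Each value was set against the wild-type mean of its gene, and the medians over the 41 genes were 0.040, -0.015, 0.012 and -0.046 in wild-type mice 42, 48, 54 and 63 and 0.28, 0.095, 0.20 and 0.16 in R6/2 mice 64, 65, 70 and 78. Every R6/2 mouse lay above every wild-type mouse, mouse 64 by the most and mouse 65 by the least. Among the R6/2 mice, mouse 64 had the highest value for 21 of 41 members and mouse 65 the lowest for 26. Single members departed from this order. Eif4g2 was higher in R6/2 mouse 65 (11.60) than in mouse 64 (11.36) or 70 (11.27). The median of all genes on the same scale stayed between -0.040 (R6/2 mouse 65) and 0.016 (R6/2 mouse 64).

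**Figure D4:**
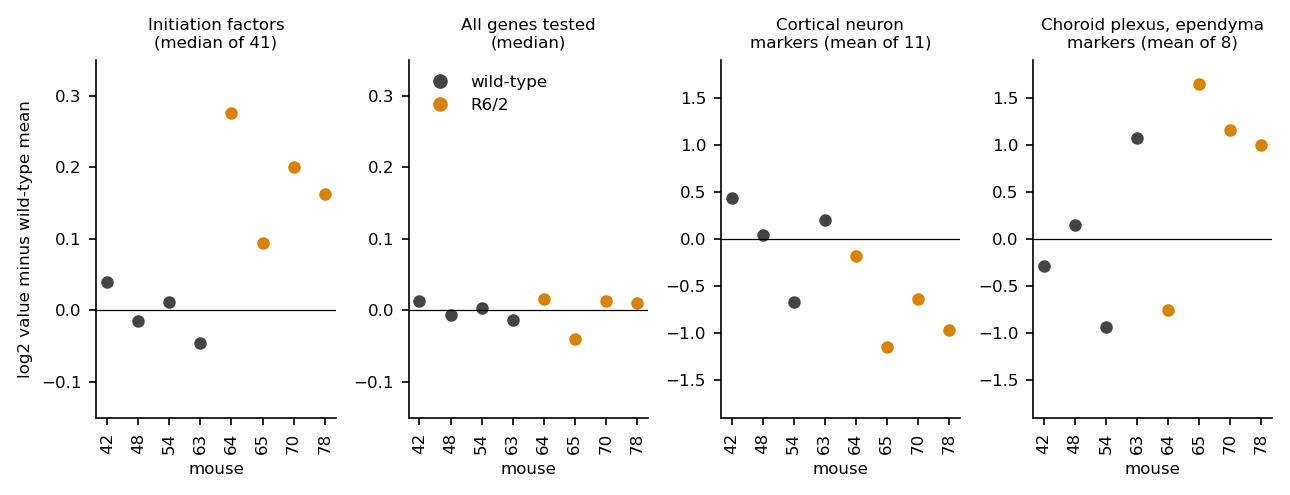
Log2 value minus the wild-type mean for each mouse (horizontal axes, by number): the median of the 41 initiation factor genes, the median of all 18193 genes, and the mean of the cortical projection neuron and of the choroid plexus and ependyma markers. The R6/2 mice lie between 0.095 and 0.28 for the initiation factors and between -0.040 and 0.016 for all genes. The marker panels have a wider scale, and their groups overlap.

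Markers of other tissue varied between the same arrays. The mean of 11 of 12 cortical projection neuron markers ranged from -0.68 to 0.44 in the wild-type group, and in the R6/2 group from -1.15 (mouse 65) to -0.18 (mouse 64), with 3 of 11 lower. The mean of 8 choroid plexus and ependyma markers ranged from -0.93 to 1.07 in the wild-type group, and in the R6/2 group from -0.75 (mouse 64) to 1.65 (mouse 65), with 1 of 8 higher. No marker list had a member as dim as Eif2s3y. Medium spiny neuron markers were present and lower, with wild-type means of -0.23 to 0.097, R6/2 means of -0.92 to -0.85, and 7 of 8 measured markers called lower. The other lists covered narrower ranges. Of their markers, 3 of 8 astrocyte, 4 of 7 endothelial, 1 of 7 oligodendrocyte and 0 of 8 microglia markers were called lower. The astrocyte means lay at -0.15 to 0.20 in wild-type and -0.27 to -0.18 in R6/2 mice, without overlap. The endothelial means lay at -0.13 to 0.14 in wild-type and -0.43 to -0.29 in R6/2 mice, also without overlap. The oligodendrocyte and microglia means overlapped between the groups. The 2 microglia markers at an unadjusted p under 0.05 in limma went opposite ways, Ctss by 0.40 and Cx3cr1 by -0.25. In tissue samples a change in the share of a cell type and a change in RNA per cell cannot be told apart. With the cortical mean as a covariate, the members' median was 0.20, 1 member was called higher (Eif6, a ribosome anti-association factor, adjusted p = 0.0408), and none of the 9 calls of the fit without it passed, while the genes called over the whole table fell to 1204. The differences of some lost calls were larger with the covariate: Eif1b (0.40), Eif2s2 (0.42), Eif3d (0.41) and Eif5b (0.43). That of Eif3e was 0.27. Others were smaller: Eif2d (-0.28), Eif4a2 (0.22), Eif2s3x (0.24) and Eif4e (0.33). The part of cortical and choroid plexus tissue in the single gene differences was not tested further. That of astrocytes and endothelial cells was not tested.

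Around the initiation factors, 65 of 69 listed genes of the same pathway had a probe set, and 8 rose and 6 fell, 21.5% against 15.3% of all genes. Brighter genes were called more often, and without the dimmest 40% of genes 27.3% of the 10916 genes then tested were called. In that fit 9 listed genes were called higher and 6 lower. How many listed genes remained in it was not counted. The 21.5%, from the fit of all genes, is therefore not a like share to the 27.3%. The share of the listed genes was not separated from their brightness. Of the 4 eIF2 kinase genes, Eif2ak1, which encodes the heme-regulated kinase, rose by 0.45 ± 0.086 (adjusted p = 0.00694 in limma, n = 4 each), and 3 of its 5 probe sets were called higher. The other kinase genes did not pass. Among 13 genes of eIF2 phosphatase subunits and the ATF4 branch, none was called higher and 3 fell. They were the phosphatase catalytic subunit gene Ppp1ca (-0.54 ± 0.084, adjusted p = 0.00251), the stress-induced Nupr1 (-0.63 ± 0.096, adjusted p = 0.00229) and the pseudokinase gene Trib3 (-0.37 ± 0.093, adjusted p = 0.0235). The value of Nupr1 is that of an _x_at probe set, and its other probe set, of similar brightness, differed by -1.03 (adjusted p = 0.000444 over 45037 probe sets in limma). Atf4 itself differed by 0.18 ± 0.079 (adjusted p = 0.154). The 13 genes did not share a direction: 7 differences were positive and 6 negative, with a median of 0.044. Asns (0.33), Sesn2 (0.30) and Chac1 (0.30) were positive and Ddit3 (-0.34) negative without passing (adjusted p = 0.0595, 0.0862, 0.0997 and 0.0680 in limma). Of 10 genes for repressors of cap binding and eIF4 kinases, Cyfip2, a partner of the fragile X protein, fell by 0.43 ± 0.073 (adjusted p = 0.00358). Mknk2, a kinase of eIF4E, fell by 0.29 ± 0.077 (adjusted p = 0.0315). The repressors Eif4ebp1 and Eif4ebp2 differed by -0.029 ± 0.078 and 0.11 ± 0.069 (adjusted p = 0.845 and 0.332).

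Of 7 genes of poly(A)-binding proteins and partners, Paip1, an activator that links them to eIF4A, rose by 0.32 ± 0.081 (adjusted p = 0.0238 in limma, n = 4 each). Among 10 other initiation helpers, Dhx29, a scanning helicase, rose by 0.30 ± 0.085 (adjusted p = 0.0413). Of 8 genes listed with the elongation factors by their Eef symbols, 3 rose and none fell. They were Eef1e1 (0.42 ± 0.093, adjusted p = 0.0138), Eefsec, the selenocysteine elongation factor (0.34 ± 0.10, adjusted p = 0.0416), and Eef1a1 (0.25 ± 0.073, adjusted p = 0.0422). The list goes by symbol, and not every gene on it, Eef1e1 among them, encodes an elongation factor. Of 5 termination and rescue factor genes, the release factors Etf1 (0.34 ± 0.074, adjusted p = 0.0118) and Gspt2 (0.55 ± 0.14, adjusted p = 0.0222) rose. Among 8 mitochondrial translation factor genes, Gfm2, a ribosome recycling factor, fell by 0.33 ± 0.097 (adjusted p = 0.0438) and none rose. The calls of Eif2ak1, Ppp1ca, Nupr1, Cyfip2, Eef1e1 and Etf1 were kept without any single array. Of these, Eif2ak1, Eef1e1 and Etf1 were not called with the cortical covariate (adjusted p = 0.0805, 0.0870 and 0.0546 in limma). Eef1e1 was also not called without moderation (adjusted p = 0.0524), and Etf1 with the mean of all probe sets (0.15, adjusted p = 0.124). Those of Trib3, Mknk2, Paip1, Dhx29, Eefsec, Eef1a1, Gspt2 and Gfm2 were lost without 4 to 7 arrays each, wild-type mouse 48 and R6/2 mice 64 and 70 among them for every one, and their adjusted p reached 0.117 (Gfm2 without R6/2 mouse 70). Dhx29 and Gfm2 were each called in 4 of 9 other alternatives, and with the mean of all probe sets the difference of Dhx29 was 0.11 (adjusted p = 0.267) and that of Gfm2 -0.28 (adjusted p = 0.112). Of the other Etf1 probe sets, the brightest, with a mean of 7.72, had a difference of 0.050 (adjusted p = 0.749 over 45037 probe sets in limma), and 1 was called higher, at 0.42 (adjusted p = 0.0373).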

How the data were processed

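Per the labels' protocols, total RNA of 8 striata carried a biotin label and an Affymetrix kit was used. Each probe set has 1 deposited log2 value per array, made by the authors with RMA in affy (submitters' processing notes, without versions). RMA normalizes arrays together and compresses differences of dim probe sets. The set of arrays normalized jointly is not stated in the labels. A further wild-type mouse that the series' design counts was not analysed here.

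Of 45101 probe sets, 64 were controls. The platform annotation named 1 gene for 34945, several for 932, which were not used at the gene level, and none for 9160. The 41 members all matched RefSeq genes by Entrez ID, with the same symbol. Of 49 protein-coding RefSeq genes under the same rule, Eif1, Eif2s1, Eif3g, Eif3j1, Eif3j2, Eif4a3l1, Eif4e1b and Eif4g1 were not analysed here. The model was limma's (version 3.58.1, R 4.3.3), lmFit followed by eBayes over 8 arrays with no covariate. Array correlations ranged from 0.983 to 0.994 and array medians from 5.08 to 5.13. Precision is limited by how few arrays there are. The script was tested on simulated data. Promoters were searched in Python 3.11.15.

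The members and gene lists were chosen with earlier results of these data known. Named genes were all called members, the 2 brightest members of each complex with fewer than 2 calls, fixed paralogues, and up to 3 called genes of each pathway list. Other members are given as examples. The alternatives were quantile normalization, median centring, a filter on the dimmest 40% of genes, the mean of all probe sets, leaving out probe sets ending in _s_at or _x_at, trend with robust moderation, no moderation, array weights, a cortical marker covariate and leaving out each array.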

Additional observations from a re-analysis of the deposited data

Results flagged for a closer look

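2 of 78 combinations of a named gene and a genotype held a mouse that stood far from the other 3 by Dixon's criterion, which chance alone meets in about 1 of 20. Eif5 lay at 11.01 in R6/2 mouse 78, against 10.90 to 10.91 in the other R6/2 mice. Eif2s3y, a Y-linked gene near the lowest values of the table in these female mice, lay at 3.01 in R6/2 mouse 70, above the other R6/2 mice, which lay close together.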

How the results depend on the processing

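The members' median kept its sign, between 0.12 (mean of all probe sets) and 0.20 (cortical covariate), in all 9 alternatives and all 8 fits without 1 array. The genes called higher numbered 15 with array weights, 2 without moderation and 1 with the cortical covariate, and 7 to 11 in the 6 other alternatives. The members' share called higher was 36.6% against 12.6% of all genes with array weights (3669 genes called), 4.88% against 4.50% without moderation and 2.44% against 4.03% with the covariate. Without 1 array 1 to 8 members were called higher. No member was called lower with the mean of all probe sets, without moderation or with the cortical covariate (0 each), and 0 to 1 without 1 array. Genes called over the whole table numbered 1399 without moderation, 1204 with the covariate and 1679 to 2545 without 1 array. Of the 9 calls, 5 were shared when all probe sets were averaged and 2 without moderation. Of 41 members, 6 changed sign in at least 1 fit. They were Eif1a without _s_at and _x_at probe sets (-0.0062), Eif3l with the mean of all probe sets (-0.012), Eif4h with the mean of all probe sets (-0.016) and without _s_at and _x_at probe sets (-0.026), Eif4e3 with the mean of all probe sets (0.0016), the covariate (0.049) and without R6/2 mouse 65 (0.0057, with -0.16 to 0.0057 over the fits without 1 array), Eif4g2 without 1 array (-0.034 to 0.081) and Eif4enif1 without R6/2 mouse 70 (-0.0049), none of them called. Fewer samples or residual degrees of freedom enter the fits without an array and with the covariate. The cause of the other shifts was not tested. No paired analysis was made, because the labels used here give no pairing of wild-type with R6/2 mice. The median standard error of the members was 0.085 on the log2 scale.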
